A study of Mus musculus with 248 samples.

Results

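Blood was taken from 9 CM mice and 6 Ctrl mice of the validation cohort 3 months after induction of a leukemia oncogene, and the RNA of each sample was sequenced. These 15 libraries were chosen by time point and cohort from the 248 libraries of the study, with every one of the 13607 genes in the validation table used. CM mice carried the knock-in allele Cbfb+/56M together with Mx1-Cre on a C57BL/6 background, and all 9 had the genotype code CHW. Ctrl mice were littermates, of which 3 were coded CW, 2 HW and 1 WT. According to the treatment protocol, controls were wild-type mice or carried only one of the alleles, Cbfb+/56M or Mx1-Cre. Both arms received poly(I:C) at 14 mg/kg every other day for 7 doses from 4 to 8 weeks of age. Mx1-Cre is driven by an interferon-responsive promoter that poly(I:C) switches on, and its activity is not limited to blood cells. The sample was peripheral blood from the retro-orbital sinus, labelled PBMC, so the bone marrow in which the protocol places the preleukemic cells was not measured. Leukemia was defined in the protocol by more than 20% cKit-positive blasts, and blast counts of these mice were not analysed here. The mice were sampled monthly. The last monthly library was that of month 3 for CM mice 2690, 2708 and 2719, of month 4 for 2684 and of month 5 for 2718. The CM mice 2685, 2686, 2700 and 2709 and all 6 Ctrl mice were sampled to month 6. Among the 9 CM mice, libraries taken in leukemia (L) exist for 2684, 2690, 2708, 2718 and 2719, at a month that the labels do not state. A further CM mouse of this cohort has monthly libraries to month 2 and an L library, but none of month 3. It is therefore not among the 9, and the CM arm at month 3 is not the whole CM arm of the cohort. How its absence bears on the differences between the arms and on the spread among CM mice was not tested.

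CBFB is the partner subunit that strengthens DNA binding by the RUNX transcription factors, which control the formation of blood cells. Its fusion to the tail of MYH11, a smooth muscle myosin, holds RUNX proteins in inactive or altered complexes, holds back differentiation of myeloid and lymphoid cells and is found in human acute myeloid leukemia with inversion of chromosome 16. In mice the fusion alone gives leukemia late and at irregular times, since further mutations are needed, so the animals of one cohort can stand at different stages on the same day.

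Depth was 17.88 to 27.46 M reads per library, and 98.8% to 99.8% of the genes had at least 1 read in each. Values are log2 CPM, the log2 of reads per 1000000 reads of the library, in which a gene with 0 reads sits at -6.3. Each library is a separate mouse, and all were stranded libraries of the same sequencing run. Genes of the sex chromosomes matched the labelled sex in all 15 libraries. Blood cells expected in this preparation were seen in every Ctrl library, with Ms4a1 of B cells at 9.83 to 10.57, Cd3e of T cells at 4.50 to 5.08 and Cx3cr1 of monocytes at 6.35 to 7.03. Neutrophil and red cell RNA was also there. S100a8, a granulocyte protein gene, stood at 9.38 to 10.74 in Ctrl mice, and globin genes took 0.94% to 2.47% of Ctrl reads.

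The targeted locus was examined first. A transcript listed as MHY11, with no Ensembl identifier, was read in 8 of 9 CM mice at 3.04 to 4.95 log2 CPM, with 4.95 in 2719, 4.89 in 2690 and 4.33 in 2708 as the highest values. It stood at 2.64 and 3.09 in the 2 Ctrl mice coded HW and at -3.36 or less in the other 4 Ctrl mice. In the T0 libraries it was already at 3.52 to 4.02 in the same 8 CM mice and at 3.78 and 3.82 in the HW mice, so its reads do not tell carriers of Mx1-Cre from carriers of the allele alone. The library labelled CM 2700 had 0 reads of it, which goes against its label, and this mouse also had the lowest Kit of the CM arm. At T0, T1 and T2 its MHY11 was -1.17, 0.05 and -1.45, against at most -3.13, -0.64 and -1.83 in the 4 Ctrl mice not coded HW. From T3 to T6 it was -6.3 to -4.24. Its Mcpt1 was 3.60 at T1 and 2.33 at T2, against at most -2.22 and -0.26 in Ctrl mice. Mouse 2700 was kept as labelled, and the leading results below are given with and without it. Between the arms MHY11 had an adjusted p of 0.298 in limma, and with 0 to 2 reads in 4 Ctrl mice no fold is stated. Cbfb itself (chromosome 8, 105170674 to 105217989 on GRCm38.p6) stood at 7.43 ± 0.51 in CM mice and 7.5 ± 0.33 in Ctrl mice (SD, n = 9 and 6; difference -0.05 ± 0.21, log2 ± SE, adjusted p = 0.884). The near-equal arm means cover mice at different levels. In reads, not scaled for depth, Cbfb had 2449 and 2814 in the 2 HW Ctrl mice and 3790 to 5221 in the other 4. Among CM mice it had 8065 of 26.96 M reads in 2719, 7807 of 27.46 M in 2690, 4869 in 2700 and 3876 in 2708. In 2684, 2685, 2686, 2709 and 2718 it had 2302 to 3357. The sign of the Cbfb difference turned under median-ratio scaling and when 1 of 3 single mice was left out.

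Across all genes, no difference between the arms passed the threshold. With sex as a covariate, limma called 0 of 13607 genes (0%) at an adjusted p under 0.05, and voom also called 0. The lowest adjusted p was 0.298, shared by many genes. At an unadjusted p under 0.05 there were 2224 genes (16.3%), of which 973 (7.15%) were higher and 1251 (9.19%) lower in CM mice. Without the library labelled CM 2700 limma again made 0 calls, 3442 genes had an unadjusted p under 0.05 and the lowest adjusted p was 0.0925. The count differed in 2 other fits. With separate variance weights for the arms, 75 genes were called, 73 of them higher in CM mice. A fit of months 2 to 6 with the mouse as a replicate block, which both adds libraries and pairs them, called 389 at month 3, 298 of them higher. It used a single variance per gene for both arms and all these months. The CM mice 2690, 2708 and 2719 have no monthly library after month 3, so the later months entered without them. The median difference of all genes was -0.07 on the deposited scale and -0.02 after median-ratio scaling.

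Kit (chromosome 5, 75574987 to 75656722, on the plus strand) codes for the stem cell factor receptor that marks the blasts. It stood at 10.20 in 2719, 8.57 in 2690, 7.26 in 2708, 4.89 in 2684, 4.61 in 2686, 3.76 in 2685, 3.45 in 2709, 3.34 in 2718 and 2.15 in 2700. In Ctrl mice the lowest value was 0.68, the median 1.26 and the highest 2.40. Every CM mouse but 2700 was above all Ctrl mice, and the other 8 CM mice ran over a wide range of their own. The mean difference of 4.01 ± 1.11 had an unadjusted p of 0.00278 and an adjusted p of 0.298 in limma, and an adjusted p of 0.00613 in the fit of months 2 to 6 with the replicate block. Kit was spread more widely in CM than in Ctrl mice, by 1.84 ± 0.58 in mean scaled deviation (adjusted p = 0.036).

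Genes of the mast cell and basophil lineage were the widest apart of the lists. Cpa3, the carboxypeptidase of mast cell granules, stood at 11.55 in 2719, 10.92 in 2690 and 8.61 in 2708, at 2.81 to 6.13 in the other 6 CM mice, with a median of 5.57 in the arm. The Ctrl values were 0.91 at the lowest, 1.94 at the median and 3.07 at the highest, so that the CM mice 2700 and 2709 lay within the Ctrl range. The difference was 4.41 ± 1.34 (unadjusted p = 0.00549, adjusted p = 0.298). Mcpt1, a mast cell protease gene, is best given in reads. It had 9659 reads in 2684, 8316 in 2708, 7224 in 2690, 3686 in 2719, 356 in 2718, 336 in 2685, 253 in 2686, 11 in 2709 and 2 in 2700, against 0 to 3 reads in the 6 Ctrl mice. At 0 to 3 reads no fold can be stated, and its unadjusted p of 0.000183 (adjusted p = 0.298) became an adjusted p of 0.00329 in the fit of months 2 to 6 with the replicate block. All 8 CM mice other than 2700 were above every Ctrl mouse.

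The 250 bases upstream of the starts of Kit, the marker of the blasts, and of the 2 mast cell genes just described are given below from RefSeq for GRCm38.p6, on the strand of the gene. Kit is chr5:75574737-75574986 (plus strand, 1 of 2 listed starts), Cpa3 is chr3:20242182-20242431 (minus strand) and Mcpt1 is chr14:56017714-56017963 (plus strand). Capitals mark the letters TGTGGT, the core bound by RUNX factors, and AGATAA, a form of the GATA motif, each searched on both strands.
Kit: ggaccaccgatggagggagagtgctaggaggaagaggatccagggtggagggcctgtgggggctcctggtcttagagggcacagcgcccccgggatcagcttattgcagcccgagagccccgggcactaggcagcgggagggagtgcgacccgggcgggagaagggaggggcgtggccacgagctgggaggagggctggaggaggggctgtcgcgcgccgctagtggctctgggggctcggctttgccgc
Cpa3: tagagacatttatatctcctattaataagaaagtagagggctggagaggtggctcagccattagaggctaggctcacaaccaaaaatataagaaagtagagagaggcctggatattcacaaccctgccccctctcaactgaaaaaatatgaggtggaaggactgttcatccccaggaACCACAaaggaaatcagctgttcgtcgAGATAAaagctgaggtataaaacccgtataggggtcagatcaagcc
Mcpt1: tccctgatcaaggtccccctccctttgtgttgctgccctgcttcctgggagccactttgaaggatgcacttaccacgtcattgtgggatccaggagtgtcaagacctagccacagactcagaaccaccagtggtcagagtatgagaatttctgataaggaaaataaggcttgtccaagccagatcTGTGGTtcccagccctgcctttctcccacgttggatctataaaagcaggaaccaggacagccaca
The Cpa3 window held 1 match to each motif (ACCACA is TGTGGT on the other strand), with no overlap between them. Mcpt1 held 1 match to TGTGGT and none to AGATAA, and the Kit window held neither. Of 32851 promoter windows of this kind, 14% held TGTGGT and 9.99% held AGATAA on either strand.

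**Figure D1:**
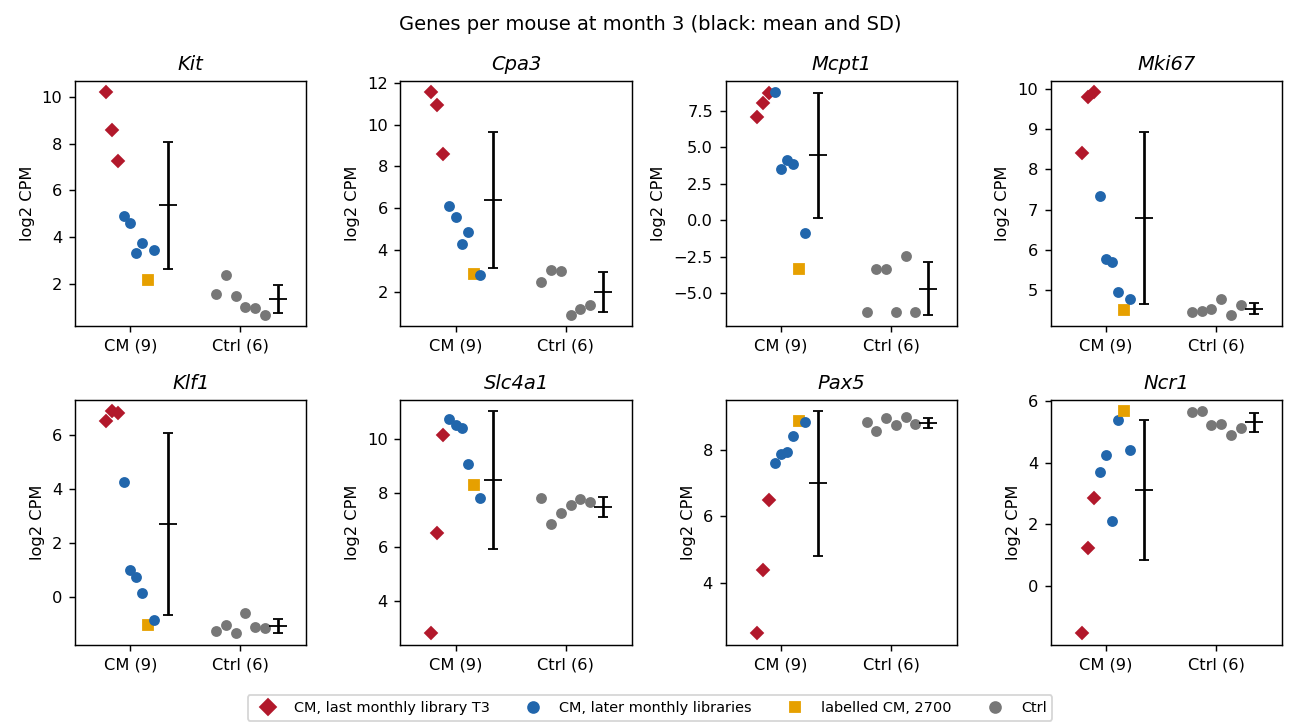
Level of 8 genes (y axes, log2 CPM) in each CM mouse and each Ctrl mouse at month 3, with group mean and SD. Diamonds are the 3 CM mice whose last monthly library was month 3, circles the CM mice sampled later, the square is the mouse labelled CM 2700 and grey points are Ctrl mice. For Kit the 3 diamonds lie at 7.26 to 10.20 and the Ctrl mice at 0.68 to 2.40.

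The other genes that led the comparison by p included several of red cells. Cmas, which activates sialic acid for the cell surface, stood at 6.72 to 8.49 in CM mice with a median of 7.65, and at 6.40 to 6.65 in Ctrl mice with a median of 6.48. All 9 CM mice were above all 6 Ctrl mice (difference 1.14 ± 0.21, unadjusted p = 9.81e-05, adjusted p = 0.298). Rhag, a component of the Rh complex of the red cell membrane, stood at 1.72 to 5.14 in CM mice with a median of 4.04, and at 0.88 to 2.03 in Ctrl mice with a median of 1.13 (difference 2.50 ± 0.52). The CM mice 2700 and 2709 overlapped the Ctrl range. Ypel4 had 10 to 265 reads in CM mice and 1 to 7 reads in Ctrl mice, too few for a fold. The theta globin gene Hbq1b differed by 2.16 ± 0.45, Trim58, a ubiquitin ligase of late erythroblasts, by 2.03 ± 0.41, and Prxl2a by 1.71 ± 0.36. Specc1 differed by 1.47 ± 0.30 and Acsl1, an enzyme that activates fatty acids, by 1.03 ± 0.22. C4b, a complement gene, differed by 3.42 ± 0.73. Each had an adjusted p of 0.298, and all 9 of these genes were higher in CM mice.

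Complete separation of the arms was rare. All 9 CM mice were above all 6 Ctrl mice for 25 genes (0.184%) and below them for 28 (0.206%), and without the library labelled CM 2700 the shares were 0.897% and 0.786%. Genes named from these sets were chosen after their values were seen. Among those above were Kel, the Kell blood group protein, at 1.72 to 6.95 in CM mice and 0.84 to 1.5 in Ctrl mice, and the cyclin gene Ccna2, at 2.33 to 7.24 and 1.82 to 2.13. Meis1, a homeobox gene of stem cells, stood at 2.44 to 6.37 in CM mice and 1.84 to 2.42 in Ctrl mice. Among those below were Btg2, an antiproliferative immediate early gene, at 6.49 to 8.72 in CM mice and 8.73 to 8.90 in Ctrl mice, and the transporter gene Abca6, at -1.04 to 2.95 and 3.32 to 3.94. The CM mouse nearest the Ctrl range was 2700 or 2709 for each of these genes, with 2700 level with 2685 for Abca6.

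Gene lists for cell types and processes were then counted at an unadjusted p under 0.05, since no member of any list was called. The erythroid list had 13 of 18 measured members higher and 0 lower, with a median difference of 2.33, against 7.15% and 9.19% of all genes and a median of -0.07. The 9 members of 15 that were higher in the basophil and mast cell list had 0 lower beside them, and its median was 3.86. In the mitosis list 14 of 18 were higher (median 2.22), in the DNA replication list 6 of 16 (0.94), in the stem and progenitor list 10 of 18 (1.53) and in the heme synthesis list 4 of 8 (0.79), with 0 lower in each. Lymphoid and monocyte lists had the other sign. The monocyte list had 7 of 14 lower (median -0.66), the NK and cytotoxic list 4 of 15 (-0.80), the B cell list 2 of 16 (-1.61) and the MHC class II list 1 of 10 (-1.21), with 0 higher. Without the library labelled CM 2700, 15 of 16 B cell and 4 of 10 MHC class II genes were lower and 11 of 16 replication genes higher, against 13.8% of all genes lower and 11.5% higher. The immediate early list had 6 of 13 lower (median -0.72), and the mature neutrophil list 2 of 11 (-0.78). No list changed the sign of its median under median-ratio or quantile scaling. In bulk blood, fewer cells of a type and less RNA per cell cannot be told apart.

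The lists differed in how evenly the 9 CM mice contributed. In the erythroid list, the mean difference from the Ctrl mean was 4.57 in 2708, 3.73 in 2684, 3.54 in 2690, 2.55 in 2686, 2.34 in 2718, 2.28 in 2719, 1.41 in 2685, 0.46 in 2700 and 0.34 in 2709, against -0.20 to 0.31 in Ctrl mice. All 18 erythroid members were above the highest Ctrl mouse in 2684, 2686, 2708 and 2718, against 21.9%, 15.2%, 40.3% and 17.9% of all genes. For mitosis the values were 5.15 in 2690, 4.82 in 2708, 3.95 in 2719 and 2.60 in 2684, and 0.20 to 0.93 in the other 5, against -0.21 to 0.24 in Ctrl mice. The 4 mice with the highest mitosis values each had all 18 members above the highest Ctrl mouse. Of all genes, 41.6% were above it in 2690, 40.3% in 2708, 37.3% in 2719 and 21.9% in 2684. The B cell list stood at -5.55 in 2719, -4.19 in 2690, -2.25 in 2708, -1 in 2684, -0.87 in 2686, -0.81 in 2718 and -0.20 in 2685, and at 0.03 in 2709 and 0.13 in 2700, against -0.20 to 0.23 in Ctrl mice. Both CM mice with a positive B cell value also had the lowest erythroid values.

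Other lists ran in opposite directions within the CM arm. The T cell list stood at -3.29 in 2719 and -2.61 in 2690, and at 0.71 in 2718, 0.49 in 2686 and 0.39 in 2709, against -0.29 to 0.41 in Ctrl mice. In 2719 and 2690 all 19 T cell members were below the lowest Ctrl mouse. In 2718 there were 17 above the highest and in 2686 there were 14. Of all genes, 49.4% in 2719 and 44.9% in 2690 were below the lowest Ctrl mouse. Above the highest were 17.9% in 2718 and 15.2% in 2686. The platelet and megakaryocyte list was at -2.09 in 2719, -1.52 in 2690 and -0.77 in 2708, and at 0.90 in 2718, 0.80 in 2686 and 0.64 in 2684, against -0.18 to 0.25 in Ctrl mice. The CM minus Ctrl medians of these lists, -0.40 and -0.31, were therefore averages of both directions. Without 2690, 2708 and 2719 the T cell list had 14 of 19 members higher at an unadjusted p under 0.05 and a median of 0.41, and the platelet list had 3 of 14 and a median of 0.35, against 7.17% of all genes.

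Globin transcripts followed a similar division. They took 7.10% of the reads in 2684, 6.67% in 2686, 4.86% in 2718, 3.58% in 2685, 2.64% in 2700, 2.57% in 2708, 1.41% in 2709, 0.18% in 2690 and 0.0357% in 2719. The Ctrl mice had 0.94% to 2.47%. With 6 values above the Ctrl range and 2 below it, the means were 3.23% ± 2.58 in CM mice and 1.53% ± 0.523 in Ctrl mice (SD, n = 9 and 6; exact permutation test over 5005 splits, two-sided p = 0.145). Slc4a1, the anion exchanger of the red cell membrane, showed the same pattern, at 2.80 in 2719 and 6.52 in 2690 and at 7.80 to 10.71 in the other 7 CM mice, against 6.83 to 7.81 in Ctrl mice. Klf1, a transcription factor of early erythroid cells, did not. It was highest in the 3 mice 2690, 2708 and 2719, at 6.90, 6.8 and 6.5, against -1.04 to 4.24 in the other 6 CM mice and -1.36 to -0.62 in Ctrl mice. The high Klf1 of 2690 and 2719 thus stood beside globin shares below every Ctrl mouse.

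**Figure D2:**
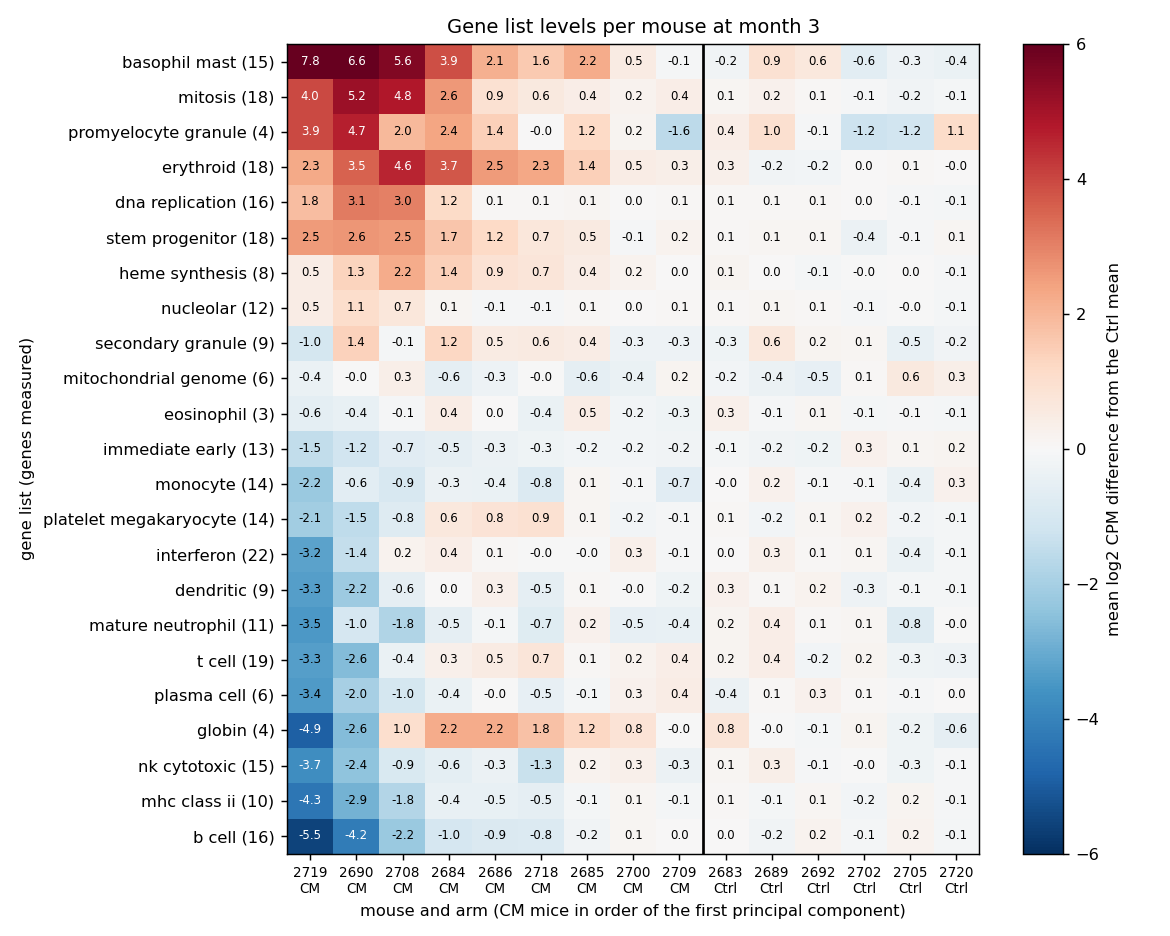
Mean log2 difference from the Ctrl mean (colour scale) for 23 gene lists (rows) in each mouse at month 3, with the 9 CM mice on the left, ordered by their score on the first principal component, and the 6 Ctrl mice on the right. The mitosis row runs at 3.95 to 5.15 in the CM mice 2690, 2708 and 2719 and the T cell row at -3.29 in 2719 and 0.71 in 2718.

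The CM mice differed widely among themselves. The first principal component of the 15 libraries took 69% of the variance. On it, 2719 scored 214.9, 2690 175.5, 2708 93 and 2684 11.5, the other 5 CM mice -54.4 to -31.7, and the Ctrl mice -55.6 to -45.7. These 5 CM mice therefore scored close to the controls, with 3 of them above the whole Ctrl range. The share of genes more than 1 log2 unit from the Ctrl mean was 45.4% in 2719, 43.8% in 2690, 26.4% in 2708, 11.1% in 2684, 7.48% in 2686, 6.45% in 2718, 4.46% in 2709, 3.27% in 2685 and 1.90% in 2700. Each Ctrl mouse differed from the mean of the other Ctrl mice in 2.33% to 3.66% of the genes by this measure. The library labelled CM 2700 was thus nearer the Ctrl mean than any control was to the others.

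Gene by gene, the standard deviation was larger in CM mice for 13003 of the 13607 genes (95.6%), with a median of 0.47 in CM mice and 0.15 in Ctrl mice. An SD above 2 log2 units was reached by 929 genes in CM mice and by 98 in Ctrl mice. A limma test on the deviations of each mouse from its arm mean called 3465 genes (25.5%) with a larger spread in CM mice and 11 (0.0808%) with a smaller one. Without the library labelled CM 2700, 4939 genes were called. The number of calls rested on 3 mice together. It was 5 without 2690, 4 without 2708 and 3 without 2719, and 144 without all 3. At an unadjusted p under 0.05 the fall was smaller. There were 6487 such genes with all mice, 3915 without 2690, 5998 without 2708, 4587 without 2719 and 2336 without all 3. Without 1 Ctrl mouse at a time the number of calls was 1407 to 1652. With deviations from the arm median it was 0, with 1402 genes at an unadjusted p under 0.05. Among the 6 CM mice sampled later, the median SD was 0.21, and the SD was larger than in Ctrl mice for 75.5% of the genes.

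The 10 genes with the largest difference in spread were taken from called genes with a mean log2 CPM above 1. Their adjusted p values in limma were 0.0108 to 0.0192. Car1, a carbonic anhydrase of early erythroid cells, stood at 9.17 in 2719, 9.12 in 2690, 8.34 in 2708 and 5.77 in 2684, and at -1.49 to 2.33 in the other 5 CM mice, with a median of 2.33. The Ctrl mice were at -2.25 to -0.08 with a median of -1.51. Its deviations were larger in CM mice by 3.31 ± 0.70. The next were Klf1 at 3.02 ± 0.45, Podxl, a sialomucin of progenitors and endothelium, at 2.94 ± 0.45, and the collagen gene Col5a1 at 2.81 ± 0.63. Il1rl1, the interleukin-33 receptor of mast cells and basophils, followed at 2.76 ± 0.59, with 12.34 in 2719, 11.92 in 2690, 10.58 in 2708 and 3.18 to 8.35 in the other CM mice against 2.25 to 3.88 in Ctrl mice. Rnf128 (2.79 ± 0.55), Cadm3 (2.70 ± 0.46), Ntn4 (2.68 ± 0.49) and Septin8 (2.60 ± 0.43) had the same 3 mice at the top. The pseudogene Hspd1-ps4 (2.69 ± 0.69), whose reads may be shared with its parent gene, had them at the bottom, at -4.35, -4.33 and -0.19 against 3.07 to 4.03 in the other CM mice and 2.80 to 3.79 in Ctrl mice. Without the 3 mice its difference in spread was -0.00. By list, 17 of 18 mitosis genes, 15 of 16 B cell genes, 10 of 10 MHC class II genes and 14 of 16 replication genes were called with a larger spread in CM mice, against 25.5% of all genes. Of the T cell genes 1 of 19 was called, although the SD was larger in CM mice for all 19, with a median of 1.45 in CM mice and 0.31 in Ctrl mice.

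**Figure D3:**
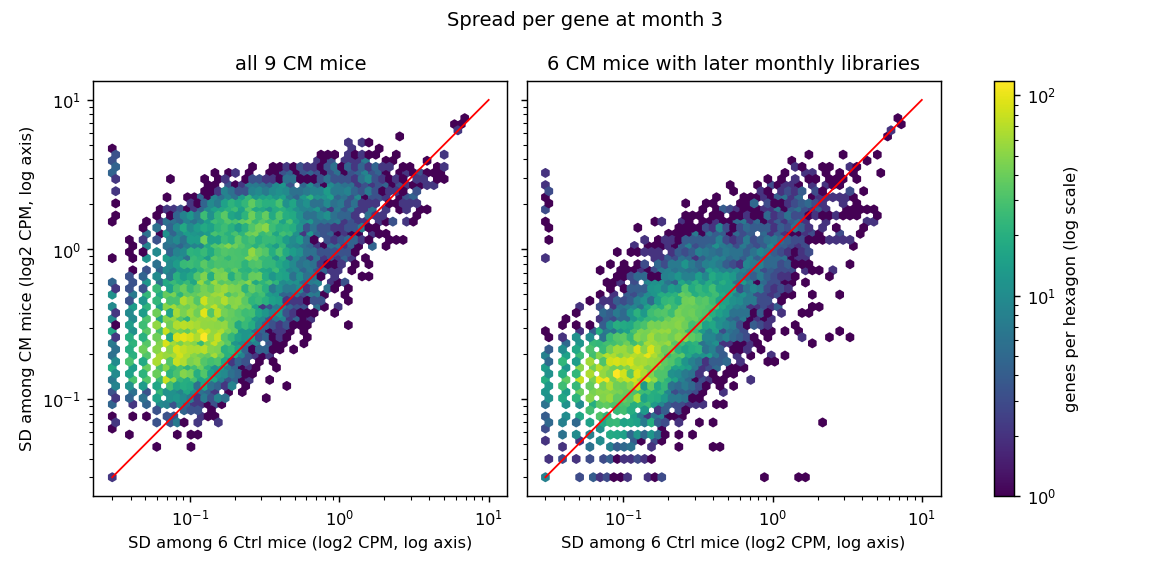
Standard deviation of each gene among CM mice (y axis) against that among Ctrl mice (x axis), in log2 CPM on log axes, with values under 0.03 drawn at 0.03, for all 9 CM mice on the left and for the 6 CM mice sampled after month 3 on the right. Brighter cells hold more genes, on a log colour scale, and the red line marks equal spread. Of all genes, 95.6% lie above the line on the left and 75.5% on the right.

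The position of each CM mouse can also be read as the share of genes outside the range of the 6 Ctrl mice. A mouse like the controls would also fall outside that range for some genes. No such share was computed for Ctrl mice, so the smaller shares do not by themselves set a CM mouse apart. In 2719 it was 37.3% above and 49.4% below, in 2690 41.6% and 44.9%, and in 2708 40.3% and 35.2%. The other 5 CM mice with reads of MHY11 had 12% to 26.2% above and 11.6% to 44.3% below, with 12% and 20.8% in 2685, and the library labelled CM 2700 had 9.68% and 10.9%. The balance of higher and lower genes depended on scaling. The median gene was lower than in Ctrl mice by -0.15 in 2686, -0.11 in 2684 and -0.09 in 2718, and after median-ratio scaling these mice had 26%, 30.3% and 26.6% of genes above and 21.1%, 30.5% and 25.4% below. On the deposited scale, 15.2%, 21.9% and 17.9% were above and 44.3%, 40.5% and 37.5% below. In 2719, 2690 and 2708 both shares were 38.2% or more after that scaling.

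The 3 CM mice whose monthly sampling ended at month 3 (2690, 2708 and 2719) were set against the 6 CM mice sampled later. This division comes from the labels, but it was chosen after the values were seen, and its calls are given as a description rather than as independent evidence. At an adjusted p under 0.05, 4060 genes (29.8%) were higher and 4382 (32.2%) lower in the 3 mice. The sum of 8442 was 7840 without the library labelled CM 2700, and 6091 to 9386 when 1 CM mouse at a time was left out. The 2 sets of mice did not overlap for 3763 genes (27.7%) that were higher in the 3 mice and 3143 genes (23.1%) that were lower.

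Of the 10 named genes at the upper end, 4 belonged to the basophil and mast cell list. Fcer1a, a chain of the high-affinity IgE receptor, stood at 12.16, 11.52 and 10.21 in 2719, 2690 and 2708, and at 1.85 to 7.23 in the CM mice sampled later. Ms4a2, its beta chain, stood at 12.06, 11.68 and 10.85, and at 2.80 to 8.51. Cma1, a mast cell chymase gene, stood at 9.92 in 2719, 6.73 in 2690 and 4.81 in 2708, and at -0.22 to 1.99 in the 6 mice sampled later, beside 1.23 to 2.21 in Ctrl mice. The basophil and mast cell list as a whole took 0.0109% to 2.43% of the reads in CM mice and 0.00947% to 0.0218% in Ctrl mice. The 3 mice lay above all later mice for 10 of its 15 members and below them for 0, against 27.7% and 23.1% of all genes. Its member Mcpt8 was not higher in the 3 mice. It had 170, 35 and 51 reads in 2719, 2690 and 2708, 16 to 153 in the mice sampled later and 9 to 574 in Ctrl mice. Tpsb2, a tryptase gene of connective tissue mast cells, had 25 reads in 2719, 1 read in 2690 and 0 reads in the other 13 mice. Hoxa9, a homeobox gene of progenitors, had 827 reads in 2719, 663 in 2690 and 234 in 2708, against 0 to 4 in the other CM mice and 0 to 3 in Ctrl mice. Wnt2, which codes for a secreted signal, had 5155, 4784 and 2620 reads in the 3 mice, 709 in 2684 and 0 to 37 in the other 5 CM mice, against 0 to 2 in Ctrl mice.

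Among the 10 named genes at the lower end were genes of platelets. Gng11, a G protein subunit abundant in platelets, stood at 1.68 in 2719, 2.80 in 2690 and 5.38 in 2708, and at 7.72 to 8.66 in the CM mice sampled later, beside 7.78 to 8.43 in Ctrl mice. Sytl4, a gene of granule release in platelets, stood at -0.64, 0.66 and 2.84, and at 5.72 to 6.46 in the mice sampled later. Pf4, platelet factor 4 and a member of the platelet list rather than of these 10, stood at 4.15, 4.59 and 6.17, and at 7.36 to 8.54. The platelet and megakaryocyte list did not move as one, with the 3 mice below all later mice for 10 of 14 members and above them for 2 of 14, Gp1ba and Nfe2, against 23.1% and 27.7% of all genes. Gp1ba, a chain of the von Willebrand factor receptor, had 968, 1115 and 698 reads in 2719, 2690 and 2708 and 347 to 577 in the mice sampled later, against 363 to 476 in Ctrl mice. Hspd1-ps4, Yap1, Krt19, Prkaa2, Gad1, Crisp3, Triqk and Pdgfa completed the 10. Krt19, a keratin gene, was uneven in every set, at -6.30 to 1.10 in the 3 mice, 1.92 to 5.40 in the mice sampled later and 0.23 to 4.24 in Ctrl mice, and it was not called by voom or without 2719.

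Genes of B cells and antigen presentation were low in the 3 mice, which lay below all later mice for 16 of 16 members of the B cell list and 10 of 10 of the MHC class II list, against 23.1% of all genes. In the NK and cytotoxic list this held for 3 of 15. Pax5, the master factor of B cells (chromosome 4, 44524748 to 44710694), stood at 2.47 in 2719, 4.38 in 2690 and 6.48 in 2708, at 7.60 to 7.92 in 2684, 2686 and 2718, and at 8.41 to 8.85 in 2685, 2709 and 2700. Ctrl mice were at 8.55 to 8.97. In all, 7 of 9 CM mice were below all Ctrl mice, and the arm difference was -1.82 ± 0.88 (unadjusted p = 0.0584, adjusted p = 0.298). Ncr1, an NK cell receptor gene, stood at -1.53, 1.23 and 2.84 in 2719, 2690 and 2708, at 2.10 in 2718 and at 3.68 to 5.66 in the other 5 CM mice, against 4.90 to 5.68 in Ctrl mice (difference -2.16 ± 0.91, unadjusted p = 0.0321, adjusted p = 0.298). Gzmb, a granzyme of cytotoxic cells, stood at 5.55, 4.85 and 3.64 in 2719, 2690 and 2708 and at 2.61 to 4.77 in the mice sampled later, against 3.46 to 4.17 in Ctrl mice, so that 2719 and 2690 were high and 2708 was not. Cd74, the MHC class II invariant chain, stood at 6.76, 8.85 and 9.81 in the 3 mice and at 11.06 to 11.73 in the mice sampled later, against 11.40 to 11.85 in Ctrl mice. The depth of the 3 libraries was 26.96, 27.46 and 19.73 M reads, against 17.88 to 23.81 M reads in the other 12.

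Interferon response genes, which poly(I:C) induces when injected, did not form a single group at month 3. The list had 1 of 22 members lower at an unadjusted p under 0.05, Stat2, and 0 higher, with a median of -0.52. Of all genes, 9.19% were lower and 7.15% higher. Without the library labelled CM 2700, 3 of 22 were lower, against 13.8% of all genes. Rsad2, an antiviral enzyme, stood at 1.85 in 2719 and 6.65 in 2690, but at 9.15 to 11.99 in the other 7 CM mice with an arm median of 10.40, against 8.42 to 9.21 in Ctrl mice. Isg15, a ubiquitin-like protein, was at 1.70 and 2.71 in these 2 mice and at 3.55 to 6.14 in the other 7, against 3.08 to 3.51. Both genes were above every Ctrl mouse in at least 6 CM mice and below every Ctrl mouse in 2. They did not stand for the whole list. In the 7 CM mice other than 2690 and 2719, 1 to 8 of its 22 members were above every Ctrl mouse and 0 to 8 below. Of all genes, 9.68% to 40.3% were above and 10.9% to 44.3% below in these mice. Members of the immediate early list went both ways in the 3 mice, with 9 of 13 below every Ctrl mouse and 2 of 13 above in each. Of all genes, 44.9%, 35.2% and 49.4% were below in 2690, 2708 and 2719, and 41.6%, 40.3% and 37.3% above. The 2 list members above were Jun and Egr1. Jun had 1117, 1145 and 977 reads in 2690, 2708 and 2719 against 419 to 661 in Ctrl mice. Junb, a subunit of the AP-1 factor, stood at 6.95 to 7.81 in CM mice with a median of 7.59 and at 7.66 to 8.39 in Ctrl mice with a median of 8.04 (difference -0.57 ± 0.14, unadjusted p = 0.000914, adjusted p = 0.298). Fos stood at 5.57 to 6.74 in CM mice and 6.41 to 7.57 in Ctrl mice (difference -0.90 ± 0.21).

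Leaving out the 3 mice sets the mean of the other 6 CM mice against the Ctrl mean. A difference in that mean need not be shared by all 6 mice. The erythroid list, for one, stood at 0.34 in 2709 and 0.46 in 2700, against 3.73 in 2684. Limma made 0 calls, and 2147 genes had an unadjusted p under 0.05 (975 higher, 7.17%, and 1172 lower, 8.61%) with a lowest adjusted p of 0.199. Leaving out the library labelled CM 2700 as well gave 0 calls, 2809 genes and a lowest adjusted p of 0.0845. With the 3 mice left out and 2700 kept, the erythroid list had 16 of 18 members higher and 0 lower (median 1.69), the globin list 4 of 4 (1.22), the stem and progenitor list 8 of 18 (0.50), the mitosis list 9 of 18 (0.82) and the basophil and mast cell list 5 of 15 higher and 1 lower (1.19). In the replication list 1 of 16 was higher and 1 lower (0.15). The B cell list had 7 of 16 lower (-0.38) and the immediate early list 8 of 13 (-0.33). A list of 18 genes taken from earlier results on CM minus Ctrl differences in these cohorts had 11 higher and 3 lower (1.78), against 11 and 4 (2.37) with all 9 CM mice. That list was chosen on these data and is no independent evidence of its direction.

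A label that does not come from the month 3 values was used as a further division of the CM arm, the existence of a leukemia library. The 5 mice with one (2684, 2690, 2708, 2718 and 2719) were compared with the 4 without (2685, 2686, 2700 and 2709), for which the labels do not say whether leukemia developed. Limma made 0 calls (0%), and 3465 genes (25.5%) had an unadjusted p under 0.05. Without 2718, the mouse sampled monthly to month 5, 878 genes were called, 822 of them higher. The first genes by p were Tex21, Csf1, ENSMUSG00000106858, Sdc1 and Klrb1b. Csf1, the macrophage growth factor, stood at 2.28 to 3.66 in the 5 mice and 4.21 to 5.03 in the 4, without overlap. Sdc1, syndecan of plasma cells, stood at -0.81 to 1.45 and 2.99 to 4.32, and Klrb1b, an NK cell receptor, at -1.15 to 0.67 and 2.01 to 3.09. Tex21 stood at 2.44 to 3.09 in 2690, 2708 and 2719, at -0.53 in 2684 and -2.63 in 2718, with 0 reads in the 4 mice and in all 6 Ctrl mice. The genes were chosen by the same comparison, and each value is a description.

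The months before and after place these values in each animal. Between months 2 and 3, Kit differed by 4.73 log2 units in 2719 and 3.34 in 2690, by 0.41 in 2708 and by -1.13 to 0.53 in the other 6 CM mice, against -0.60 to 0.74 in Ctrl mice. At month 2 it was 6.84 in 2708, 5.47 in 2719 and 5.23 in 2690, so 2708 had been the highest of the 3. The share of genes that differed by more than 1 log2 unit between the months was 40.9% in 2719, 38.3% in 2690 and 10.0% in 2708, and 4.09% to 7.73% in the other CM mice, against 6.06% to 14.8% in Ctrl mice. Over the arms, the CM change minus the Ctrl change gave 0 calls (0%) and 100 genes at an unadjusted p under 0.05 (0.735%), led by Slc39a4, Cd14, Chrm4, Gm17039 and Arsg. Months 2 and 3 were sequenced in different runs, which both arms share.

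Pax5 ran the other way in the same animals, at 5.36 in month 2 and 2.47 in month 3 in 2719, and at 5.15 and 4.38 in 2690. In 2708 it was 4.71 and then 6.48. In the L libraries Kit stood at 9.89 in 2719, 10.40 in 2690, 10.19 in 2708, 8.22 in 2684 and 11.44 in 2718, and Pax5 at 3.09, 3.88, 2.20, 5.06 and 3.65. At month 3 the mouse 2719 was thus already at its L level of Kit (10.20), 2690 and 2708 were below theirs, and 2684 (4.89) and 2718 (3.34) were far below. The L libraries were prepared without strand information, so the levels are set side by side and not tested. Kit was at 2.78 to 4.95 in the libraries of months 4 to 6 of 2685 and 2686 and of months 5 and 6 of 2709, against 0.89 to 2.66 in Ctrl mice, and the library labelled CM 2700 stayed at 1.54 to 1.98. Slc4a1 was at 1.77 to 6.59 in the L libraries of 2684, 2690, 2708, 2718 and 2719, and Klf1 at 4.10 to 7.33.

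**Figure D4:**
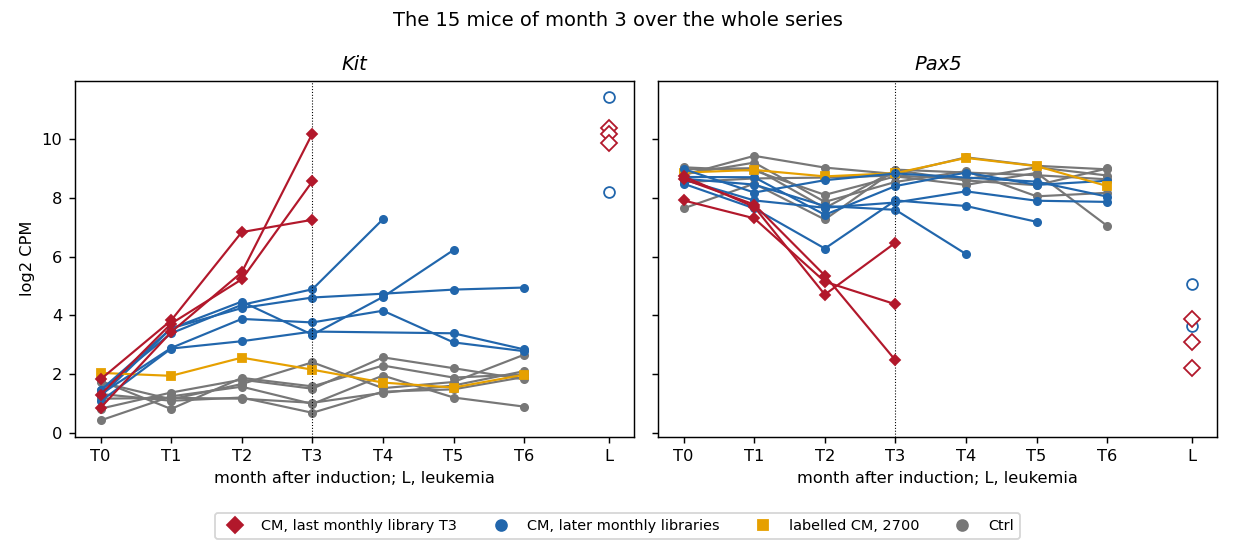
Kit (left) and Pax5 (right) in log2 CPM by month (x axis, T0 to T6, with L apart as open symbols) for each of the 9 CM mice and, in grey, the 6 Ctrl mice. Lines join the monthly libraries of one mouse. Kit of 2719 stands at 5.47 at month 2 and 10.20 at month 3, and Pax5 at 5.36 and 2.47.

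The same contrast could be set beside the training cohort, whose month 3 libraries came from 7 CM and 7 Ctrl mice and were prepared with ribosomal RNA removal. Tables of the 2 cohorts were filtered separately, so only differences within a cohort are compared. In training mice limma called 0.632% of 18508 genes, 58 of them higher and 59 lower in CM mice. Of these, 91 were in the validation table. The validation difference had the same direction for 40 of 43 higher genes and 47 of 48 lower genes, where 42.7% of all genes were higher and 57.3% lower. At an unadjusted p under 0.05 in the validation cohort were 27 of the 43 and 25 of the 48, against 7.15% and 9.19% of all genes in those directions, and 0 had passed in the opposite direction. Their median difference was 1.86 in validation and 2.61 in training mice for higher genes, and -1.27 and -1.33 for lower genes. Without the library labelled CM 2700 the direction was shared by 41 of 43 and 48 of 48. Without 2690, 2708 and 2719 it was shared by 43 of 43 and 46 of 48, where 37.4% of all genes were higher and 62.6% lower, and the medians were 0.96 and -0.41.

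Kit was called in the training cohort (2.47 ± 0.50, adjusted p = 0.038). There it stood at 3.35 to 7.12 in CM mice and 1.41 to 2.53 in Ctrl mice, without overlap. Cpa3 differed by 4.41 ± 1.34 in validation and 5.27 ± 0.65 in training mice and C4b by 3.42 ± 0.73 and 5.59 ± 0.44. Among lower genes were Sdc1 at -1.35 ± 0.65 in validation and -2.22 ± 0.28 in training mice, the NK receptor gene Klra8 at -2.89 ± 1.12 and -2.35 ± 0.44, and Akap12, a kinase anchor protein gene, at -1.53 ± 0.70 and -2.14 ± 0.26. Each of these standard errors was larger in the validation cohort. The median SD among CM mice was 0.47 in both cohorts, and among Ctrl mice it was 0.15 in validation and 0.19 in training mice. A test of the difference between the cohorts called 0 of 13232 shared genes (0%), and 556 had an unadjusted p under 0.05 (4.2%). Its lowest p was that of Gpx3, a secreted glutathione peroxidase, at -0.04 ± 0.24 in validation and 2.07 ± 0.42 in training mice (unadjusted p of the difference 0.000149, adjusted p = 0.907).

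**Figure D5:**
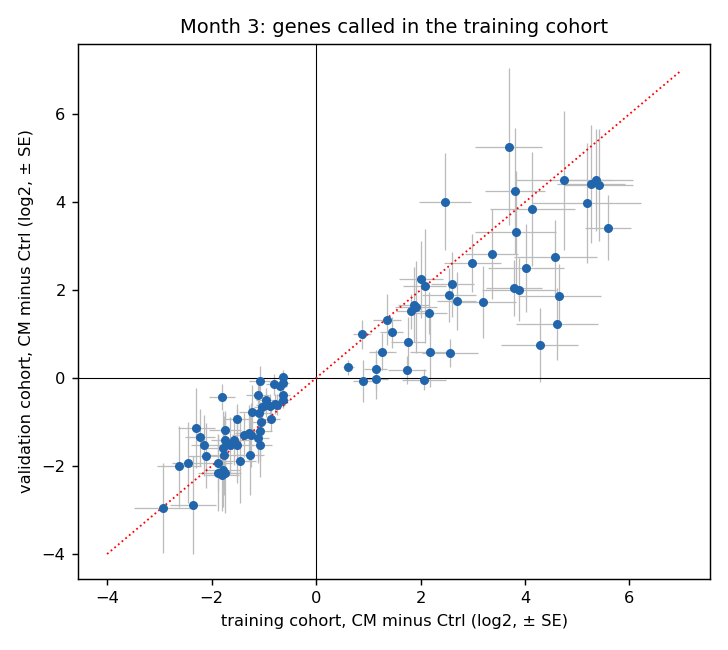
CM minus Ctrl difference at month 3 (log2) in the validation cohort (y axis) against the training cohort (x axis) for the 91 genes called in the training cohort and present in both tables. The red dotted line marks equal differences. Higher genes have a median of 1.86 in validation and 2.61 in training mice.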

How the data were processed

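RNA of peripheral blood was sequenced in bulk. The submitters' processing notes name STAR, the build GRCm38, Subread with featureCounts, and edgeR. Tool versions were not given in the sources used here. As deposited by the authors, values are log2 CPM in 1 table per cohort, whose names state a filter of 5 CPM in 2 samples for the validation and 0.5 CPM in 2 samples for the training cohort. Solving the deposited values for reads with a prior of 0.25 and no composition factor returned whole numbers throughout (tolerance 0.01 reads). These reads were used for depth, read counts, voom and the prior of 2 reads. A count of 0 allows up to 3 reads, a limit that covers counting error only.

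Differences were tested on the deposited log2 CPM in limma 3.58.1 with R 4.3.3 (intensity trend, sex as a covariate, two-sided, Benjamini-Hochberg adjustment over all 13607 genes, calls at an adjusted p under 0.05). The spread test used absolute deviations from the arm mean, scaled for the number of mice, without a covariate. Errors are standard errors for differences and SD for levels. Summaries used Python 3.11.15, numpy 2.4.6 and pandas 2.3.3. The tests were tried on simulated data. Alternatives were median-ratio and quantile scaling, a prior of 2 reads, a filter at a mean log2 CPM of 1, voom, no sex term, variance weights per arm, a replicate block and leaving out single mice. The months of one mouse are paired because they come from the same animal. Between months 2 and 3 the deviations of a mouse from its arm mean correlated at 0.349 to 0.728 in CM mice and -0.234 to 0.369 in Ctrl mice, and the block fit estimated a correlation of 0.406.

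The members, the gene lists and the tests were chosen with earlier results of these data known. Named genes are the 10 lowest p values of the arm comparison, since under 20 genes were called. Kit, Cbfb and MHY11 were named in any case. For spread they are the 10 largest differences among called genes with a mean log2 CPM above 1. For the 3 mice sampled last at month 3 they are 10 in each direction, under the same limits and without overlap between the sets. Predicted or unnamed genes and immunoglobulin or T cell receptor segments were left out there. The other comparisons have 5 each. The p-values treat each mouse as a replicate. Myh11 was not analysed here.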

Additional observations from a re-analysis of the deposited data

Results flagged for a closer look

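Of 98 groups of mice examined for a single value far from the rest (Dixon's criterion at 95%), 7 held one, 4 among CM and 3 among Ctrl mice. Chance alone marks about 1 in 20 groups. In the CM arm, the library labelled CM 2700 stood apart in MHY11, at -6.3 log2 CPM against 3.04 to 4.95 in the other 8 CM mice. It also stood apart in the mean of the fusion gene and RUNX partner list, at -0.67 relative to the Ctrl mean against 0.98 to 2.37. CM mouse 2719 stood apart in the monocyte list at -2.21, against -0.94 to 0.13 in the other 8 CM mice, and in the interferon list at -3.22, against -1.41 to 0.40. In the Ctrl arm, mouse 2683, the only WT control, had the highest Rhag at 2.03, against 0.88 to 1.22 in the other 5 Ctrl mice, and the highest Acsl1 at 6.75, against 6.24 to 6.41. Ctrl mouse 2705 had the lowest mature neutrophil list at -0.77, against -0.03 to 0.40.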

How the results depend on the processing

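Of 1307 alternative values, 143 were counts of called genes or the globin share, and those that moved by more than 1.5 times are given here. Of 1164 values for single genes, 1083 kept their direction and their side of the threshold, 51 were no longer called, 25 became called and 5 turned their sign. The count of 0 for CM minus Ctrl became 75 with variance weights per arm and 389 in 1 fit of months 2 to 6 with the replicate block, which pairs the months of one mouse and also adds the libraries of 4 other months, so that the 2 choices were not separated. It stayed at 0 when any 1 mouse was left out and under the other alternatives. The comparison of months 2 and 3 also gave 0 without the replicate block. The spread count of 3476 was 0 with deviations from the arm median, 144 without 2690, 2708 and 2719, and 3 to 5150 when 1 mouse at a time was left out. The comparison by leukemia library gave 0 to 878 calls when 1 mouse was left out, the highest without 2718. For Cbfb the difference was 0.00 after median-ratio scaling and -0.17 to 0.06 when 1 mouse was left out, and the spread of Hspd1-ps4 differed by -0.00 without the 3 mice. The causes were not tested. Leaving out the 3 mice was chosen after seeing the data, as were the comparison of these mice with the later ones and its alternatives. The arms hold 9 and 6 mice, and for genes with under about 3 reads in Ctrl mice no fold is known.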

Other observations

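The lists of plasma cells, dendritic cells and neutrophil granule proteins were not described as a whole above. The plasma cell list took 0.0142% to 0.0377% of the reads in CM mice and 0.0356% to 0.0438% in Ctrl mice. Its mean difference from the Ctrl mean was -3.39 in 2719, -1.97 in 2690 and -1.04 in 2708, and -0.49 to 0.43 in the other 6 CM mice. The dendritic cell list stood at -3.29 in 2719, -2.18 in 2690, -0.56 in 2708 and -0.52 in 2718, and at -0.25 to 0.29 in the other 5 CM mice, against -0.29 to 0.26 in Ctrl mice. The secondary granule list of maturing neutrophils, by contrast, was at 1.39 in 2690 and 1.23 in 2684 but at -1.04 in 2719, against -0.46 to 0.64 in Ctrl mice. Of its 9 members 3 were higher and 1 lower at an unadjusted p under 0.05, against 7.15% and 9.19% of all genes. Its median CM minus Ctrl difference was 0.09. The promyelocyte granule list, with 4 of 8 listed genes in the table, took 3.43e-05% to 0.00156% of the reads in CM mice and 2.8e-05% to 0.000123% in Ctrl mice. Its mean log2 differences from the Ctrl mean ranged over -1.56 to 4.67 in CM mice and -1.22 to 1.09 in Ctrl mice. The 4 genes had 0 to 13 reads each in Ctrl mice, so these values rest on few reads and are not folds.

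The nucleolar list, of ribosome assembly factors, stood at 1.05 in 2690, 0.69 in 2708 and 0.46 in 2719, and at -0.07 to 0.12 in the other 6 CM mice, against -0.12 to 0.11 in Ctrl mice. All 12 members were above the highest Ctrl mouse in 2690 and 2708, and 7 in 2719. Of all genes, 41.6%, 40.3% and 37.3% were above it in these mice. The eosinophil list, of which 3 of 5 listed genes were in the table, stood at a mean of -0.58 to 0.45 in CM mice and -0.14 to 0.31 in Ctrl mice. In 2719 and 2690 its members went both ways, with 2 below and 1 above every Ctrl mouse and medians of -2.32 and -2.11. Of all genes, 49.4% were below and 37.3% above every Ctrl mouse in 2719, and 44.9% and 41.6% in 2690. The eosinophil list took 0.0325% and 0.0115% of the reads in 2719 and 2690, against 0.00229% to 0.00326% in Ctrl mice. Most of these reads were of 1 gene, Siglec5, listed as Siglecf, with 8746 and 3090 reads against 87 to 168 in Ctrl mice. Ccr3 had 11 and 13 reads against 27 to 74, and Il5ra 13 and 46 against 314 to 491. The 6 genes of the mitochondrial genome in the table had a median difference of -0.22, with 0 at an unadjusted p under 0.05 in either direction.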
